A study of Mus musculus with 9 samples.

Results

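The 41 genes described here encode the nucleolar machinery that makes ribosomes: proteins of the small nucleolar ribonucleoproteins (snoRNPs), processing factors of both ribosomal subunits, nucleolar chaperones and RNA polymerase I. They were chosen by symbol, with a mean deposited value of at least 10 over the 9 libraries as the condition. All 41 listed genes were in the table and all 41 met it, out of 15238 genes that did so. The data are RNA-seq of mouse liver from 3 genotypes of the methylarginine reader SND1, with 3 libraries each: animals with intact Snd1 (WT), a knockout of Snd1 (KO) and a knock-in (KI) whose Tudor domain carries a mutation. The Tudor domain is the fold with which SND1 binds methylated arginine, and the study asked what it contributes to transcription. All mice were males of the FVB strain aged 60 days, kept on normal chow. The sources used here do not give the knockout construct, the mutated residue, the litters or the number of mice per library, so a p-value covers only the spread among these 9 libraries, which may be technical. Hepatocyte is the labelled cell type, although whole liver tissue is described. In such bulk samples fewer cells of a type and less RNA per cell cannot be told apart.

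In the nucleolus RNA polymerase I, helped by the factor UBTF, transcribes the long ribosomal RNA precursor. Box C/D snoRNPs then guide its methylation, box H/ACA snoRNPs guide its pseudouridylation, and a succession of processing factors cuts, folds and packs it into the small and the large subunit. Genes of this machinery are usually expressed together and are well-known targets of MYC, and the liver, which secretes most plasma proteins, keeps a high demand for ribosomes.

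Libraries are named by genotype and replicate, such as WT_1. The replicate numbers are those of the sample titles, and except for KO_3 they differ from the numbers that end the deposited column names. Snd1 itself had 6512 to 8446 normalized counts in WT, 227 to 414 in KO and 5373 to 7941 in KI. The 7 hepatocyte markers used summed to 6.65% to 8.83% of the normalized counts of WT libraries, 4.86% to 7.26% in KO and 4.54% to 7.34% in KI. KI_1 (4.62%), KI_3 (4.54%), KO_2 (5.77%) and KO_3 (4.86%) lay below every WT library. Transcripts of the exocrine pancreas stood out in WT_3, KI_1 and KI_3, where the 14 acinar markers made up 1.21%, 0.48% and 5.66% of the library, against at most 0.00524% in each of the other 6 libraries. None of these 14 was at 0 throughout. Results that lean on those 3 libraries are therefore also given without them, which leaves 2 WT, 3 KO and 1 KI library. Of 13 Kupffer cell and macrophage markers, 3 were higher in KO than in WT by the test used below, and their sum ran from 26226 to 53031 in KO against 17808 to 32348 in WT. Of 12 neutrophil markers 8 were in the table, without Camp, Ltf, Ly6g and Mpo. Their sum ran from 213 to 1801 in KO, 95.4 to 266 in WT and 106 to 419 in KI. The summed proliferation markers ran from 144 to 237 in KO, 366 to 562 in WT and 303 to 594 in KI. The part of these cell types in the results below was not tested.

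The 4 members with the smallest p-values between KI and WT were Nop58, Nop2, Tsr1 and Gnl3, and their promoters are shown for that reason, as the bases upstream of the RefSeq start site on the coding strand that lie outside the annotated gene (build GRCm38.p6). The windows are chr1:59684756-59684970 on the forward strand for Nop58, chr6:125131633-125131882 on the forward strand for Nop2, chr11:74897830-74898070 on the forward strand for Tsr1 and chr14:31019153-31019381 on the reverse strand for Gnl3. Capitals mark the E-box CACGTG, which MYC and related factors can bind, and CCGGAAG, a motif of ETS factors.
Nop58: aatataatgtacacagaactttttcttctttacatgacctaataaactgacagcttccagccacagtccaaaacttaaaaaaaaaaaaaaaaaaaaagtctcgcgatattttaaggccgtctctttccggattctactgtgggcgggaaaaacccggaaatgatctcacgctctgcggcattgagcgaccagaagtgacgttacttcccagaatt
Nop2: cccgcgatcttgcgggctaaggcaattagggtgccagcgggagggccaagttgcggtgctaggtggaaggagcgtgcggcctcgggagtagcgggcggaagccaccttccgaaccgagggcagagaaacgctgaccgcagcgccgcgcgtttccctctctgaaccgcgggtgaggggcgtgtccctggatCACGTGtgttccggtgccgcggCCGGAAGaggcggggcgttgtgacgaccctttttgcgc
Tsr1: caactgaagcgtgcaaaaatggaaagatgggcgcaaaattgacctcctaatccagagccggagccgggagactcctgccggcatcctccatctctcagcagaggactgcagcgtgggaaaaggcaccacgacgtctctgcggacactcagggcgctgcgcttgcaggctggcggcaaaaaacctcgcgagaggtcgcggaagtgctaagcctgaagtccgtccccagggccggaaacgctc
Gnl3: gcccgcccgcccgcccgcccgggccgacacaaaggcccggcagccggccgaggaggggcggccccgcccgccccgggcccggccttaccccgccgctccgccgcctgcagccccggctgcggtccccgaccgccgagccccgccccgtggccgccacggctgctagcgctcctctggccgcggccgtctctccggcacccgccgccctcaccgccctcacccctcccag
In the Nop2 promoter the E-box began 60 bases and the ETS motif 38 bases before the start site, and neither string was present in the other 3 stretches. In Tsr1 both strings occurred just past the printed stretch, around and after the start site. RefSeq promoters of 300 bases (250 before and 50 after the start) were matched for 36 of the 41 members, 44 promoters in all. Searched on both strands, CACGTG was in 13.6% of the member promoters and in 7.15% of all 32851 promoters, or 9.54% of those of tested genes. CCGGAAG was in 34.1% of the member promoters, 8.86% of all and 16.2% of those of tested genes. CCAAT, bound by NF-Y, was in 25% of the member promoters and 37.4% of all, and a 10-letter motif of NRF1 in 0% and 0.971%. None of these 4 strings contains another, and a match describes letters, not a bound site.

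Per kilobase of annotated exon, WT levels of the members spanned from 68 normalized counts for Polr1a, the largest subunit of RNA polymerase I, to 2368 for Npm1, a chaperone of nucleolar assembly and histones. Nop10, a small protein of box H/ACA particles, followed with 1525 and Ncl, the abundant RNA-binding protein nucleolin, with 926. The low end also held Nop58 at 68.6 and Ppan, a large-subunit factor, at 68.8. Exon length was counted over all annotated transcripts, so a gene with long minor transcripts reads low on this scale. The values below are normalized counts of one gene across libraries, without division by length.

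In the knockout livers a few members were called, in both directions, as were genes overall. Of the 41 members, 5 changed between KO and WT (12.2%, against 8.83% of all genes tested): Nop58 and Tsr1 were higher, and Npm1, Ncl and Nop10 were lower. These calls are limma tests with an adjusted p (Benjamini-Hochberg over all 15238 genes) under 0.05, and errors of log2 fold changes are standard errors. The higher calls were 4.88% of the members beside 4.63% of all genes, and the lower calls 7.32% beside 4.2%. The median log2 fold change of the members was 0.06 beside 0.00 over all genes, with 24 members above 0 and 17 below.

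Nop58, a core protein that holds box C/D snoRNPs together, had 707, 754 and 753 normalized counts in WT and 1126, 1159 and 1503 in KO. Every KO library lay above every WT library, with KO_3 the highest, and the log2 fold change was 0.76 ± 0.18 (adjusted p = 0.0317). Tsr1, a GTPase-like factor of late small-subunit maturation, had 803, 922 and 721 in WT and 1169, 1139 and 1336 in KO. The groups again did not overlap, and the log2 fold change was 0.58 ± 0.16 (adjusted p = 0.0465). On GRCm38 these genes lie at chr1:59684971-59719044 (Nop58) and chr11:74898071-74909342 (Tsr1), both on the forward strand. The other 3 box C/D proteins did not pass: the methyltransferase fibrillarin (Fbl) had a log2 fold change of -0.28 ± 0.13, Rrp9 of -0.19 ± 0.17 and Nop56, the partner of NOP58 in the particle, of 0.13 ± 0.19.

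The abundant nucleolar proteins Npm1 (chr11:33152287-33163206, reverse strand) and Ncl (chr1:86344719-86359400, reverse strand) and Nop10 (chr2:112261926-112263269, forward strand) fell in KO. Npm1 had 6824, 5584 and 6526 normalized counts in WT and 3941, 4051 and 5007 in KO, a log2 fold change of -0.55 ± 0.12 (adjusted p = 0.0234). Ncl had 9321, 9285 and 9700 in WT and 7174, 7744 and 6851 in KO, a log2 fold change of -0.38 ± 0.10 (adjusted p = 0.0418). For both genes the highest KO library stayed below the lowest WT library. Nop10 had 1674, 1512 and 1888 in WT and 1291, 1130 and 1201 in KO, which did not overlap either, with a log2 fold change of -0.48 ± 0.11 (adjusted p = 0.0261). Npm1 has processed copies elsewhere in the genome whose reads the counting could have split, so its value carries that uncertainty. The third chaperone, Nolc1, a scaffold that shuttles between nucleolus and cytoplasm, went the other way without passing, with 1203, 1315 and 858 in WT and 1541, 1339 and 1332 in KO (log2 fold change 0.34 ± 0.20).

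No RNA polymerase I gene was called in KO. Polr1a came closest, with 766, 995 and 662 normalized counts in WT and 1202, 1412 and 968 in KO, where KO_3 lay below WT_2 (log2 fold change 0.57 ± 0.18, adjusted p = 0.0798). Polr1b, Polr1c and Ubtf had log2 fold changes of -0.07 ± 0.20, -0.23 ± 0.12 and -0.15 ± 0.12. None of the 15 large-subunit factors was called either, and their log2 fold changes ran from -0.43 to 0.47. At the lower end Mrto4, a factor of early large-subunit assembly, had 789, 808 and 709 in WT and 590, 508 and 617 in KO (-0.43 ± 0.14, adjusted p = 0.0822). Ddx18, an RNA helicase, had 900, 850 and 828 in WT and 1095, 1090 and 1003 in KO (0.31 ± 0.10, adjusted p = 0.0898). Neither pair of groups overlapped.

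Among the 9 small-subunit factors, Heatr1, a large scaffold of the early processing complex, had 862, 1117 and 833 normalized counts in WT and 1149, 1535 and 1338 in KO, which did not overlap (log2 fold change 0.52 ± 0.18, adjusted p = 0.101). With WT_3 left aside, 11 members stood higher in every KO library than in WT_1 and WT_2 (26.8%, against 19.4% of all genes) and 7 stood lower (17.1%, against 18.6%). Over all 9 libraries, 10 members stood higher in every KO library than in every WT library (24.4%, against 15% of all genes) and 6 stood lower in every KO library (14.6%, against 14.2%). The higher ones were Nop58, Tsr1, Heatr1, Gnl3, Nolc1, Ddx18, Nop2, Wdr43, Wdr75 and Nop16, and the lower ones Npm1, Nop10, Mrto4, Ncl, Noc2l and Rrp9. The heatmap of per-library values shows both directions within KO. Of the count tools, edgeR called 2 members higher (4.88%, against 4.69% of all genes) and 2 lower (against 3.25%), and DESeq2 called 4 higher (9.76%, against 7.93%) and 4 lower (against 7.12%). The 5 calls depended on which libraries entered: with the 3 libraries holding pancreatic transcripts left out 0 of 41 remained called. Leaving out WT_1, WT_3 or KO_2 alone also gave 0. Calls over all genes fell in these fits too, from 1346 of 15238 to 533, 609 and 501 without WT_1, WT_3 or KO_2. Of the 5, Npm1 was kept without KO_3 (778 of all genes called) and Npm1 and Nop10 without WT_2 (611 of all genes). Npm1, Nop10 and Nop58 were kept without KI_3 (1062 of all genes). All 5 were kept among 8 members called without KO_1, where 2516 of all genes were called. Their directions held in each of the 22 alternatives, with log2 fold changes of 0.63 to 0.85 for Nop58 and -0.65 to -0.46 for Npm1.

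**Figure D1:**
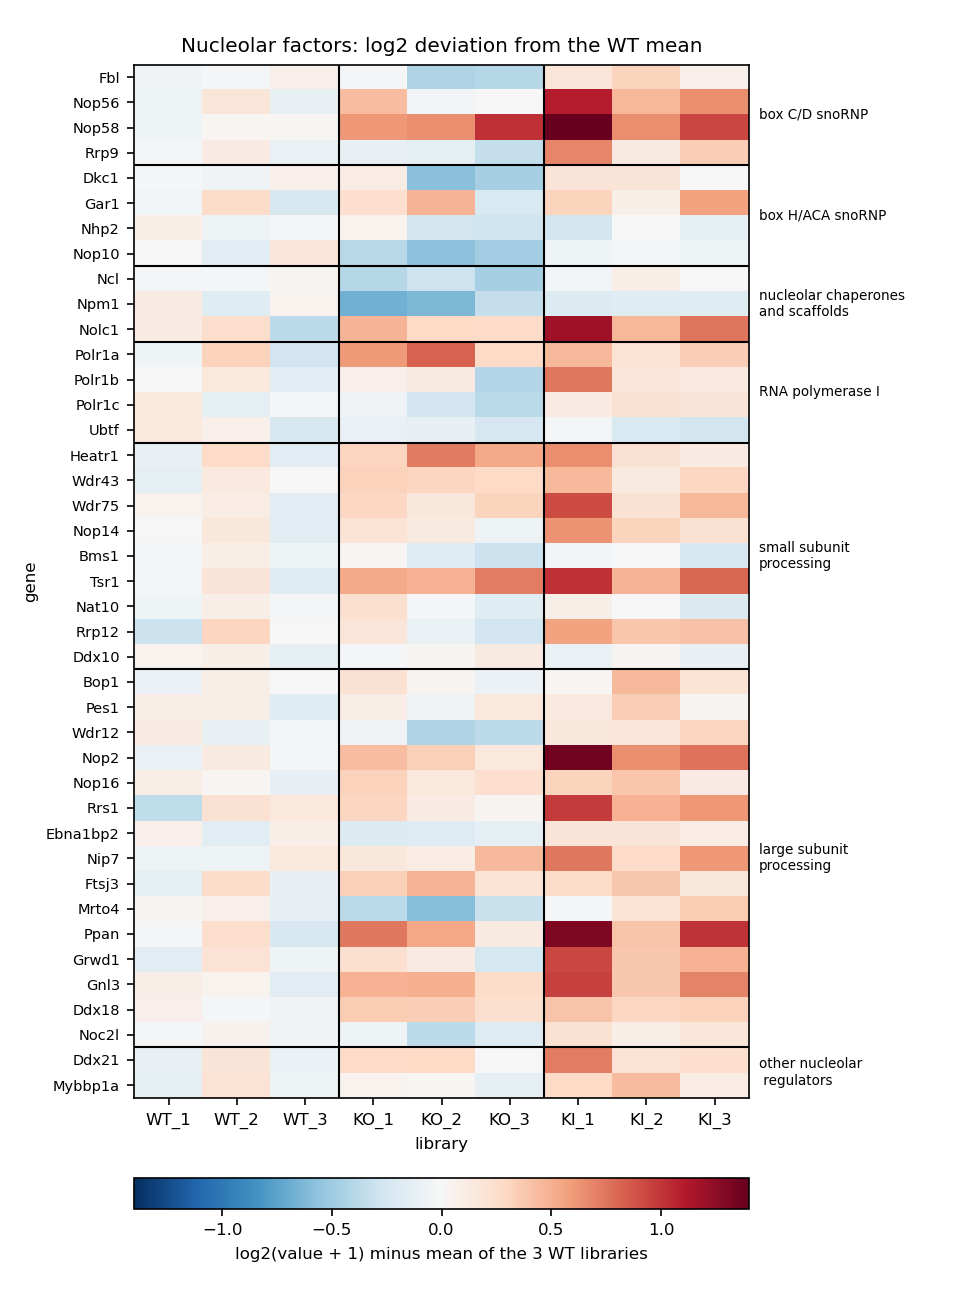
Log2 deviation of each of the 41 members (rows, grouped by role) from its WT mean in each of the 9 libraries (columns), on log2(value + 1). KI columns are mostly above the WT mean, with 33, 37 and 33 members above it in KI_1, KI_2 and KI_3, whereas the KO columns hold members on both sides.

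In the knock-in livers no member passed the test against WT, but most stood above WT. By limma 0 of 41 were called (4 genes, 0.0263% of all tested, were called: 0.00656% higher and 0.0197% lower), while 18 members had an unadjusted p under 0.05 in the higher direction (43.9%, against 5.3% of all genes) and 0 in the lower (against 6.31%). The test in edgeR also called 0 members (against 0.00656% of all genes, all lower), and DESeq2 called 8, all higher, namely Ppan, Nolc1, Nop58, Nop56, Nop2, Tsr1, Gnl3 and Rrs1 (19.5%, against 1.07% of all genes), with 0 members lower (against 1.37%). The median log2 fold change was 0.29 beside 0.00 over all genes, and 34 members were above 0 (82.9%, against 50.7%). In 20 members every KI library was higher than every WT library (48.8%, against 9.47%), and in 0 every KI library was lower (against 10.2%). Beside this, all 13 genes of the mitochondrial genome, whose share can reflect RNA quality, lay below 0 in KI against WT (median log2 fold change -0.27, 0 called, 2 at an unadjusted p under 0.05) and in KO against WT (median -0.26, 0 called). They made up 0.699% to 1% of the WT libraries, 0.662% to 0.816% of KO and 0.605% to 0.801% of KI. In KI against WT, 11 of 13 Kupffer cell and 7 of 8 stellate cell markers were above 0 (medians 0.20 and 0.26). So were 6 of 7 endothelial, 5 of 6 erythroid and 4 of 5 cholangiocyte markers (medians 0.11, 0.30 and 0.43). Neutrophil markers and those of T, B and NK cells had 4 of 6 above 0 each (medians 0.12 and 0.31). Of 10 proliferation markers 5 were above 0 (median -0.002). Hepatocyte markers leaned the other way, with 2 of 7 above 0 (median -0.12). In each of these lists 0 were called. The part of RNA quality or of any cell type in the members' values was not tested.

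Nop58 had the smallest p, with 1937, 1161 and 1411 normalized counts in KI beside 707 to 754 in WT. Its log2 fold change was 0.99 ± 0.18, and the adjusted p of 0.0913 did not pass. Nop2, an RNA methyltransferase of the large subunit, had 780, 908 and 814 in WT and 2121, 1303 and 1407 in KI (0.92 ± 0.18, adjusted p = 0.104). Tsr1 had 1650, 1131 and 1416 in KI beside 721 to 922 in WT (0.77 ± 0.16, adjusted p = 0.118). Gnl3, the GTPase nucleostemin, had 1275, 1238 and 1075 in WT and 2321, 1551 and 1926 in KI (0.68 ± 0.15, adjusted p = 0.146). In all 4 genes KI_1 was the highest and KI_2 the lowest KI library, and none overlapped WT.

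By role, all 4 box C/D proteins were above 0 in KI, with a median log2 fold change of 0.56, and Nop56 had 738, 872 and 717 normalized counts in WT and 1662, 1070 and 1212 in KI (0.74 ± 0.19). The 4 box H/ACA proteins had a median of 0.04, with 2 above 0: Dkc1, the pseudouridine synthase, had 0.12 ± 0.17 and Nop10 -0.05 ± 0.11. All 15 large-subunit factors were above 0, from 0.16 to 0.92, and 11 of them did not overlap WT. Ppan had 268, 325 and 234 in WT and 677, 360 and 553 in KI (0.91 ± 0.25), and KI_2 was the lowest there too. Rrs1 (0.69), Grwd1 (0.60), Nip7 (0.54), Ddx18 (0.34), Nop16 (0.27), Wdr12 (0.21), Ebna1bp2 (0.16) and Noc2l (0.16) were the others besides Nop2 and Gnl3. Of the 9 small-subunit factors 6 were above 0, among them Wdr75 (0.53), Rrp12 (0.45) and Nop14 (0.38), which did not overlap WT, with Nat10, an RNA acetyltransferase, at -0.04 ± 0.14. Polr1b (0.35), Polr1a (0.33), Gar1 (0.32), Mybbp1a (0.28) and Polr1c (0.17) were above 0 with overlapping groups, and Ddx21 (0.39) did not overlap. Among the chaperones Nolc1 had 2531, 1524 and 1856 in KI (0.80 ± 0.20, adjusted p = 0.188), whereas Ncl had 9167, 10090 and 9402, on both sides of the WT range (0.02 ± 0.10, 95% interval -0.20 to 0.24).

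The lowest log2 fold changes against WT were small. Npm1 had 5500, 5574 and 5598 normalized counts in KI beside 5584 to 6824 in WT (-0.18 ± 0.12, adjusted p = 0.618). Ubtf, which opens ribosomal DNA for polymerase I, had 2886, 2740 and 2240 in WT and 2579, 2245 and 2174 in KI (-0.16 ± 0.12, adjusted p = 0.65). Nhp2, a box H/ACA protein, had 763, 680 and 705 in WT and 600, 712 and 650 in KI (-0.13 ± 0.13, adjusted p = 0.747). Bms1, a GTPase of the small subunit, had 1199, 1298 and 1166 in WT and 1184, 1228 and 1043 in KI (-0.09 ± 0.12, adjusted p = 0.827). In all 4 genes the groups overlapped, Npm1 by a single KI library.

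KI_2 held almost no pancreatic transcripts, and most members stood above WT there as well. It exceeded all 3 WT libraries in 30 members (73.2%, against 26.7% of all genes) and was below all 3 in 1 (2.44%, against 27%). It was above both WT_1 and WT_2 in 30 members as well (against 34.3%) and below both in 3 (against 36%), and it was above all 3 KO libraries in 22 (53.7%, against 27.3%). With WT_3, KI_1 and KI_3 left out, the median over the members was 0.22 for KI against WT. The fit then has a single KI library, whose spread is taken to be that of the other groups, and it called 0 members. With the pancreatic level as a covariate the median was 0.33, again with 0 called.

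**Figure D2:**
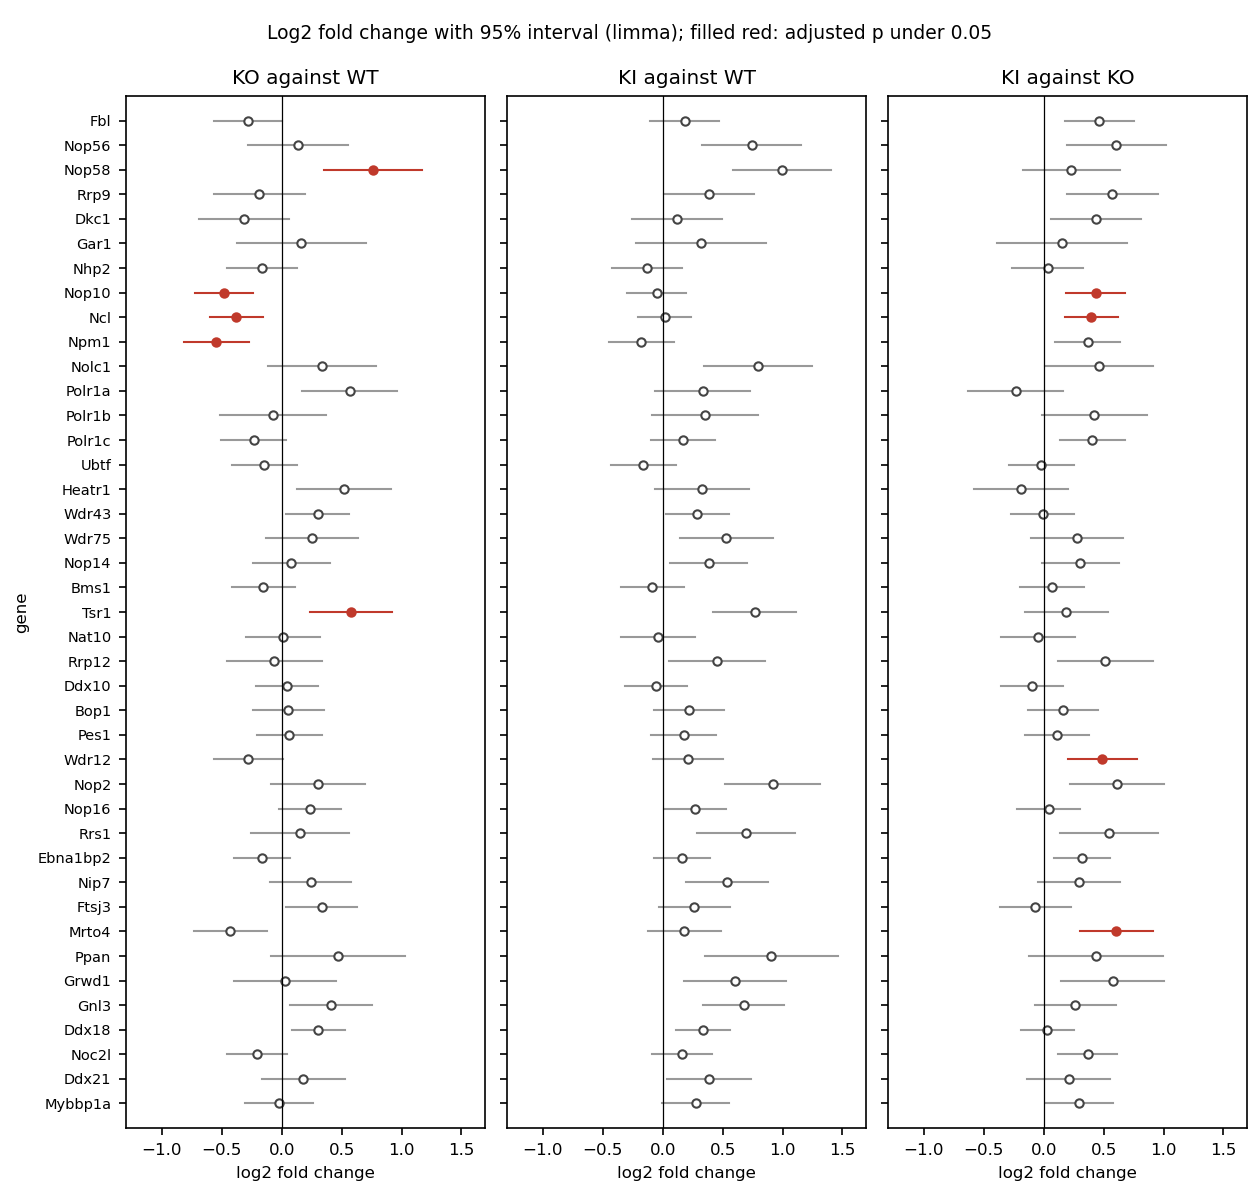
Log2 fold change of each member (rows) with its 95% interval for KO against WT, KI against WT and KI against KO, from the limma fit; called members are marked. In KI against WT 34 of 41 estimates lie above 0, and in KO against WT 24 do.

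Set directly against KO, KI was higher in 4 members (9.76%, against 3.6% of all genes called higher and 8.45% called in either direction), and 0 members were lower (against 4.85%). These were Mrto4 (chr4:139347435-139352576, reverse strand), Ncl, Nop10 and Wdr12 (chr1:60069785-60098645, reverse strand). The median log2 fold change was 0.30 beside 0.01 over all genes, and 34 members were above 0 (82.9%, against 51%). Without the 3 libraries with pancreatic transcripts the median was 0.24, with 28 members above 0 and 13 below. Of the members, 18 had an unadjusted p under 0.05 upward (43.9%, against 11.8% of all genes) and 0 downward (against 13%). In 18 members every KI library was above every KO library (43.9%, against 12.3%), and in 0 every one was below (against 14.1%). Besides the 4 called genes these 18 were Nop2, Nop56, Grwd1, Rrp9, Rrs1, Rrp12, Fbl, Polr1b, Polr1c, Npm1, Noc2l, Ebna1bp2, Nop14 and Mybbp1a. Both comparisons with WT share the WT libraries, and this one shares its KO and KI libraries with them, so the 3 sets of values are not independent.

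Mrto4 had 590, 508 and 617 normalized counts in KO and 758, 879 and 985 in KI, where the values overlapped the 709 to 808 of WT. Its log2 fold change against KO was 0.61 ± 0.14 (adjusted p = 0.0254). Ncl had 9167, 10090 and 9402 in KI beside 6851 to 7744 in KO (0.40 ± 0.10, adjusted p = 0.0375). Nop10 had 1610, 1664 and 1611 in KI, close together and above the 1130 to 1291 of KO (0.43 ± 0.11, adjusted p = 0.0403). Wdr12, which works with PES1 and BOP1 in large-subunit maturation, had 923, 794 and 842 in WT, 825, 636 and 659 in KO and 953, 957 and 1051 in KI (0.49 ± 0.13, adjusted p = 0.0463). Its PES1 and BOP1 partners did not pass, with 0.11 ± 0.12 for Pes1 and 0.16 ± 0.13 for Bop1.

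On the other side, Polr1a had 1091, 915 and 1011 normalized counts in KI beside 968 to 1412 in KO (-0.23 ± 0.18, adjusted p = 0.459), and Heatr1 had 1457, 1077 and 1009 beside 1149 to 1535 (-0.19 ± 0.18, adjusted p = 0.548). Ddx10, a small-subunit helicase, had 719, 740 and 635 in WT, 685, 713 and 757 in KO and 655, 714 and 646 in KI (-0.10 ± 0.12 for KI against KO, adjusted p = 0.655). Ftsj3, a large-subunit methyltransferase, had 1776, 2330 and 1800 in WT, 2458, 2712 and 2236 in KO and 2329, 2546 and 2179 in KI (-0.07 ± 0.13, adjusted p = 0.797). None of these 4 separated KI from KO. The count tools gave 3 members higher by edgeR, Wdr12, Nop10 and Mrto4 (7.32%, against 2.97% of all genes), and 13 by DESeq2 (31.7%, against 6.62%), with 0 lower by either (against 4.9% and 8.38%). Without the 3 libraries with pancreatic transcripts 0 of the 4 calls remained, and leaving out KO_2 or KI_3 alone also gave 0. None of the 4 was called without KI_2 either, where Rrp9 and Nop2 were called instead. Mrto4 alone of the 4 was kept without WT_1, KI_1 or KO_3 (the last with Npm1 called as well), and Mrto4 and Nop10 were kept without WT_2 or WT_3. Without KO_1 all 4 were kept among 10 members called, where 2301 of all 15238 genes were called. Calls over all genes fell from 1287 in each of the other fits named here. They numbered 400 without KO_2, 535 without KI_3, 1113 without KI_2, 833 without WT_1 and 481 without KI_1. Without KO_3, WT_2 or WT_3 they numbered 816, 956 and 997. The 4 called genes stayed above 0 in all 22 alternatives, with Mrto4 between 0.50 and 0.71.

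**Figure D3:**
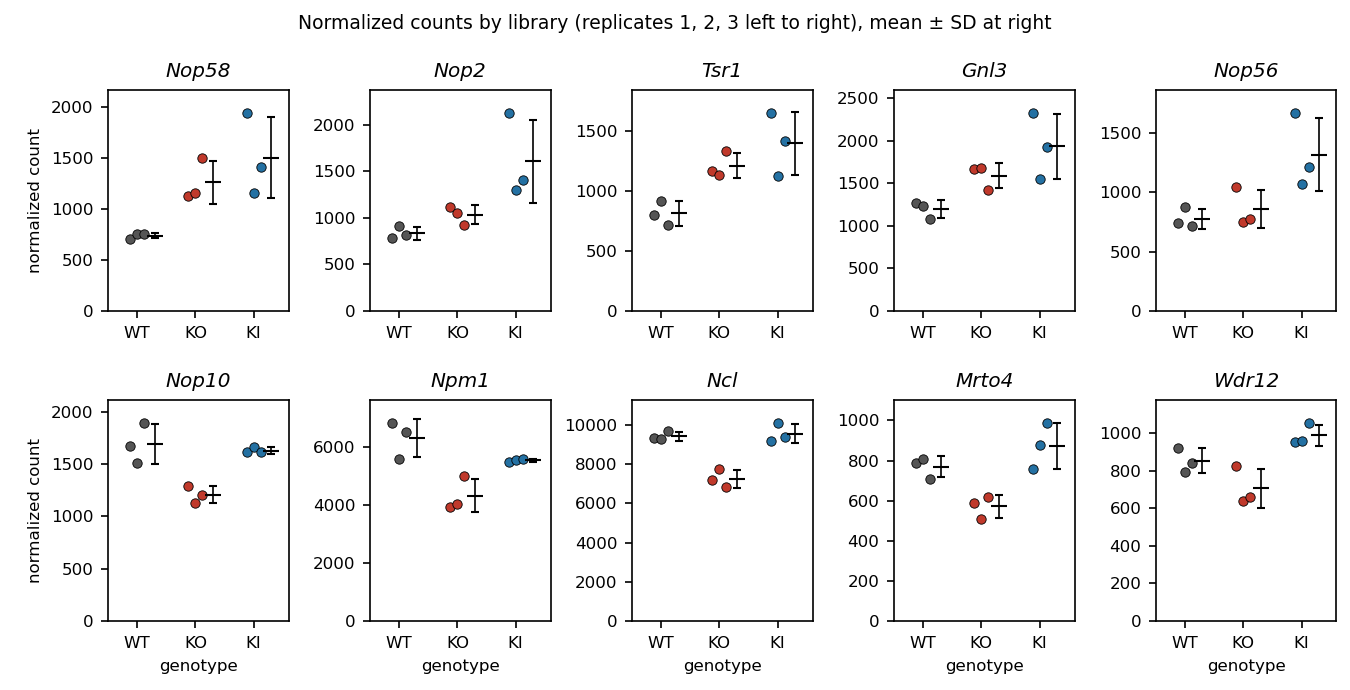
Normalized counts (y axis, from 0) of 10 members, with 1 point per library in WT, KO and KI (replicates 1, 2 and 3 from left to right) and the mean ± SD beside the points. Nop58 and Tsr1 have every KO and KI library above WT, Ncl and Nop10 have every KO library below both other genotypes, and Nop2 is highest in KI_1.

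The libraries of a group differed among themselves. The median member was -0.02, 0.09 and -0.07 from the WT mean (log2) in WT_1, WT_2 and WT_3, 0.19, 0.04 and -0.08 in KO_1, KO_2 and KO_3, and 0.31, 0.21 and 0.21 in KI_1, KI_2 and KI_3. The KI libraries were thus the 3 highest, and KO_1 was near them. KI_1 held the highest value of all 9 libraries for 20 of the 41 members (and for 14.3% of all genes), and KI_1 was 1 of the 3 libraries with pancreatic transcripts. Within WT the highest library was WT_2 for 26 members (and for 35.2% of all genes), and the lowest was WT_3 for 20 (36%). Within KO the highest was KO_1 for 24 members (36.7%), and the lowest was KO_3 for 24 (37.8%).

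**Figure D4:**
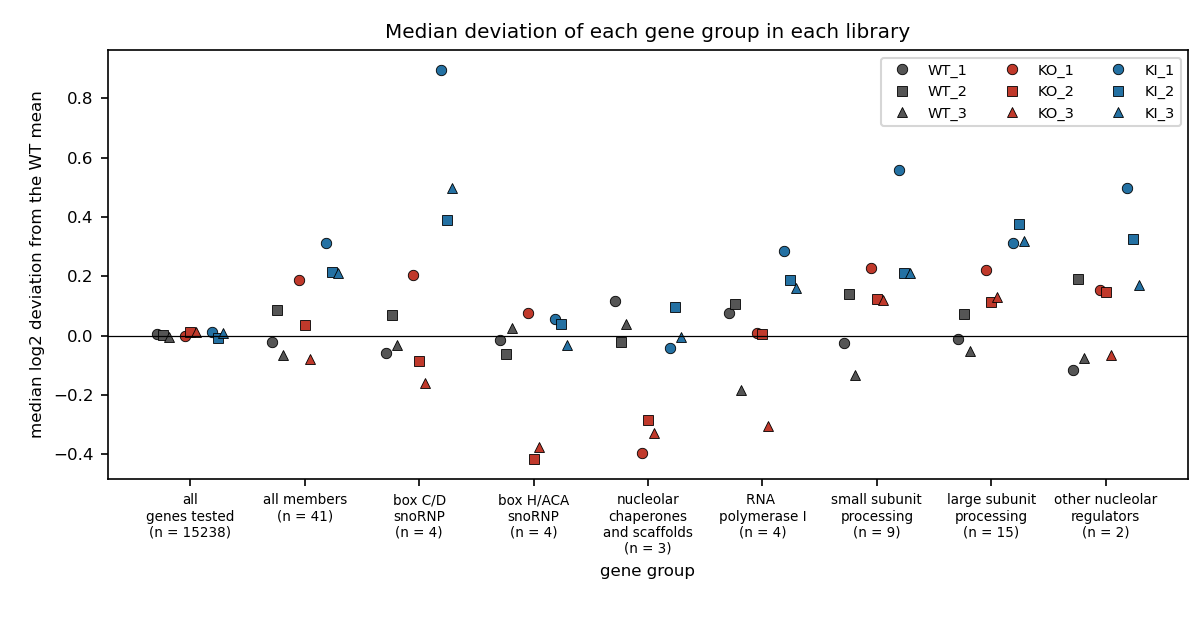
Median log2 deviation from the WT mean (y axis) of each role group of members (x axis, with its number of genes), of all members and of all genes tested, with 1 point per library; colour marks the genotype and shape the replicate. The box C/D proteins reach 0.90 in KI_1. The box H/ACA proteins stay between -0.03 and 0.06 in the 3 KI libraries, while KO_1, KO_2 and KO_3 lie at 0.08, -0.42 and -0.38.

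Some members carry snoRNA genes within their own span. By GENCODE release M21, 8 members do so (19.5%, against 1.56% of all genes tested): Nop56 holds 5 snoRNA genes, Nop58 4, Ncl, Wdr43 and Gnl3 3 each, Tsr1 and Ppan 2 each, and Dkc1 1. Their median log2 fold change in KI against WT was 0.71, beside 0.27 for the other 33 members, and -0.03 over the 230 hosts that are not members. In KO against WT the medians were 0.36 and 0.03, and -0.06 for the non-member hosts. Against KO, KI had 0.33 and 0.30. The 8 hosts include 3 of the 4 genes with the smallest p in KI against WT, so these are descriptions with no test. In all, 17 members overlap a gene on the opposite strand, and the strand setting of the counting is not given in the sources used here.

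Over the 9 libraries the members varied together only in part. Across 820 pairs the median Pearson correlation of log2 values was 0.37, or 0.19 after removing group means. It was above 0.9 in 36 pairs and below 0 in 195. Ddx21, a helicase of polymerase I transcription and processing, had the highest median correlation with the other members (0.61), followed by Gnl3 (0.61) and Nop56 (0.59), while Ddx10 (-0.25), Nhp2 (-0.14) and Npm1 (-0.12) had the lowest. Nop58 and Tsr1 were the closest pair (0.97) and Npm1 and Polr1a the most opposed (-0.89). These are descriptions over 9 libraries that share group differences and the normalization.

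Other genes of the pathway were taken from lists of polymerase I factors, snoRNP assembly, subunit processing and the RNA exosome, of which 130 were tested. In KO against WT 1 was higher (4.63% of all genes were) and 3 were lower (4.2% of all genes were), and the median log2 fold change was 0.10 beside 0.00. Rpap3, an assembly cochaperone of snoRNPs and polymerases, had 415, 475 and 409 normalized counts in WT and 721, 1359 and 1349 in KO (log2 fold change 1.34 ± 0.25, adjusted p = 0.0108), with KO_1 well below the other KO libraries. The lower genes were Nop53, a large-subunit factor (-0.61 ± 0.14, adjusted p = 0.0277), Sbds, which frees the large subunit for translation (-0.43 ± 0.10, adjusted p = 0.0325), and Wdr36, a small-subunit factor (-0.41 ± 0.10, adjusted p = 0.0334). In KI against WT 0 of the 130 were called, 108 were above 0 (83.1%, against 50.7% of all genes) and the median was 0.20 beside 0.00. The smallest p upward were in Bysl (0.70 ± 0.14, adjusted p = 0.11), Ruvbl1 (0.45 ± 0.11, adjusted p = 0.178) and Nob1 (0.59 ± 0.15, adjusted p = 0.188). Downward they were in Utp20, with 1035, 1280 and 1108 normalized counts in WT and 765, 837 and 795 in KI, which did not overlap (-0.51 ± 0.16, adjusted p = 0.256), Nop53 (-0.29 ± 0.14, adjusted p = 0.478) and Exosc8 (-0.27 ± 0.14, adjusted p = 0.511). Against KO, KI was higher in Nop9 (0.48 ± 0.12, adjusted p = 0.0328), Sbds (0.40 ± 0.10, adjusted p = 0.0423) and Rsl1d1 (0.38 ± 0.10, adjusted p = 0.0446), beside 3.6% of all genes, and lower in Rpap3 (-1.27 ± 0.25, adjusted p = 0.0143), beside 4.85%.

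Of 78 cytosolic ribosomal proteins tested, which the pathway assembles into subunits, 0 were higher (against 4.63% of all genes) and 2, Rps18 and Rpl35a, were lower in KO than in WT (against 4.2%). In KI against WT 0 were called, and in KI against KO 1, Rpl35a, was higher (against 3.6%). Their median log2 fold changes were -0.08, -0.02 and 0.05 in these comparisons. A rise in KI was not particular to the members. All 17 cytosolic heat shock chaperones tested were above 0 in KI against WT (against 50.7% of all genes), with a median of 0.73. In 15 of them every KI library was above every WT library (against 9.47%), and 1, Hsph1, was called higher (against 0.00656%). In KO against WT 4 of the 17 were above 0 (median -0.44). Any link to the members was not tested. Myc itself had 201, 187 and 827 normalized counts in WT, 125, 115 and 94.1 in KO and 207, 115 and 165 in KI. WT_3 stood alone, and neither comparison with WT passed (adjusted p = 0.0906 for KO and 0.481 for KI). Its relative Mycl was lower in KO, with 654, 551 and 671 in WT and 335, 149 and 173 in KO (log2 fold change -1.60 ± 0.35, adjusted p = 0.0219), and had 540, 426 and 225 in KI (-0.74 ± 0.35 against WT, adjusted p = 0.459).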

How the data were processed

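The 9 liver RNA-seq libraries were analysed in 3 groups of 3, set by the titles. The authors deposited 1 table of normalized counts per gene, a signal unit. The submitters' processing notes name TopHat2 and Bowtie2 for alignment, featureCounts for counting and GRCm38 as the build; versions, annotation, strand setting and scaling tool are not given in the sources used here. The kit is a stranded mRNA kit, per the labels' protocols. Deposited values were whole multiples of 1 step per library: with a tolerance of 0.0051, at least 99.995% of values in each library came out as whole reads, after undoing size factors of 0.8921 to 1.1051. Recovered totals ran from 59678412 to 66384374 reads per library; the member with the fewest, Gar1, had 113 to 196 normalized counts.

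Values were tested as log2(value + 1), with a pseudocount of 1, in the 15238 of 19944 genes with a mean of at least 10. The fit was limma 3.58.1 (R 4.3.3) with a variance trend and 1 mean per group over all 9 libraries (6 residual degrees of freedom), two-sided, with Benjamini-Hochberg adjustment over all genes tested and a threshold of 0.05. A fold change on this scale understates changes of low genes. The fit was tested on simulated data first. On the recovered reads, edgeR 4.0.16 and DESeq2 1.42.0 were alternatives: edgeR's quasi-likelihood test called 1210 genes for KO against WT, 1 for KI against WT and 1200 for KI against KO, where limma called 1346, 4 and 1287. Other computing used Python 3.11.15, numpy 2.4.6, pandas 2.3.3, scipy 1.17.1 and matplotlib 3.10.9.

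The members, gene lists and tests were chosen with earlier results of these data known. Values in every library are given for members called in any comparison and for the 4 with the smallest p in each direction; other pathway genes are named where called, or as the smallest p. Genes named beyond that, among them Nop56, Nolc1, Ppan and Heatr1 against WT, were chosen after their values were seen. RefSeq promoters and the GENCODE M21 annotation gave sequences and positions. No 2 libraries of a group were alike within sampling noise (lowest chi-square per degree of freedom 68.1). Alternatives covered pseudocounts of 0.5 and 8, filters, scalings, count tools, the groups fitted, a replicate block, the pancreatic level and each library left out.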

Additional observations from a re-analysis of the deposited data

How the results depend on the processing

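Over 22 alternatives the median log2 fold change of the members stayed above 0 for KI against WT (0.19 to 0.38) and KI against KO (0.19 to 0.37), and ran from -0.01 to 0.12 for KO against WT. Scaling to the library total lowered the KI medians to 0.19 each, while the median of all genes also fell, to about -0.09. Leaving out the 3 libraries with pancreatic transcripts gave 0.22 for KI against WT. Counts of calls were less stable, and the cause was not tested.

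Members called in KO against WT numbered 3 with no filter, 1 with library totals, 2 with quantile normalization, 8 by DESeq2, 2 with only the compared groups fitted, 1 with the pancreatic covariate and 0 without the 3 libraries. For KI against KO the same settings gave 2 with no filter, 0 with library totals, 13 by DESeq2, 0 with only those groups, 0 with the covariate and 0 without the 3 libraries. For KI against WT DESeq2 gave 8, beside 372 of all genes. In KO against WT all genes called numbered 1208 with no filter, 1110 with library totals and 1622 with quantile normalization. There they numbered 2293 by DESeq2, 871 with only those groups and 968 with the covariate. In KI against KO they numbered 1177 with no filter, 1272 with library totals, 2286 by DESeq2, 608 with only those groups and 284 with the covariate. Leaving out 1 library at a time gave 0 to 8, 0 to 10 and 0 to 1 members for KO against WT, KI against KO and KI against WT, the last being Nop58 without KI_2.

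All genes called in KO against WT numbered 1346, and 2293 by DESeq2, 871 with only those groups and 30 without the 3 libraries (501 to 2516 with 1 library left out). In KI against KO they numbered 1287, and 2286, 608, 4 and, with the covariate, 284 (400 to 2301). In KI against WT they numbered 4, and 8 with no filter, 7 with a mean of at least 50, 7 with library totals, 1 by edgeR, 372 by DESeq2, 28 with only those groups, 0 with the covariate and 0 without the 3 libraries (0 to 35). Medians with 1 library left out ran from -0.01 to 0.12, 0.23 to 0.37 and 0.22 to 0.38 for KO against WT, KI against KO and KI against WT.

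Signs turned in values that were not called. With library totals Bms1 (-0.038), Ddx18 (-0.075) and Nhp2 (-0.072) turned in KI against KO, and Ncl (-0.08) in KI against WT. With the covariate Ddx10 (0.017), Ftsj3 (0.064) and Ubtf (0.07) turned in KI against KO and Ddx10 (-0.018) in KO against WT, and quantile normalization gave Ddx10 -0.006 there. Without the 3 libraries Ddx18 (-0.012), Ftsj3 (0.049), Gnl3 (-0.033), Nop58 (-0.11) and Tsr1 (-0.10) turned in KI against KO, Ddx10 (-0.024) in KO against WT and Nop10 (0.065) in KI against WT. With 1 library left out, KI against KO ran from -0.006 to 0.15 for Bms1, -0.011 to 0.053 for Ddx18, -0.14 to 0.001 for Ftsj3, -0.03 to 0.14 for Nhp2 and -0.093 to 0.03 for Ubtf, KI against WT from -0.023 to 0.046 for Ncl and -0.13 to 0.034 for Nop10, and KO against WT from -0.024 to 0.087 for Ddx10.

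Deviations of same-numbered libraries had correlations of -0.14 to 0.57, the highest being KI against WT for replicates 2 (0.53) and 3 (0.57). With 3 libraries per group, these values cannot decide whether the numbers pair the samples. The mean log2 level of the pancreatic markers was high in both WT_3 (14.7) and KI_3 (17.2). It was low in both WT_2 (1.5) and KI_2 (1.3), and its part in these correlations was not tested. With the replicate number as a block 4, 0 and 4 members were called in KO against WT, KI against WT and KI against KO, and 1551, 3 and 1500 genes. Read depth limits Gar1 most, with 113 to 196 normalized counts, and 3 libraries per group limit all members.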
